A study of Mus musculus with 54 samples.

Results

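The genes described here encode the enzymes and remodelling complexes that modify histones, move nucleosomes or methylate DNA. They were taken by symbol, as protein-coding genes named Kdm, Kmt, Hdac, Arid, Smarc, Brd, Chd, Kat, Tet or Dnmt with a number, together with Ep300, Crebbp, Ezh1, Ezh2, Eed and Suz12. The rule found 98 of 21887 protein-coding genes. Kdm5d lies on chromosome Y, for which neither condition had any call, so 97 members were compared with the 21631 genes on the other chromosomes. Brd3os and Brd8dc match by their letters only and were kept because the rule includes them.

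The cells were mouse pancreatic cancer cells, labelled as resistant cells given gemcitabine in DMSO and as parental cells given DMSO. Gemcitabine is a nucleoside analogue used against pancreatic cancer. Resistance and drug exposure went together in these samples and cannot be told apart. Hi-C, in which neighbouring stretches of folded DNA are joined and then read as pairs, was labelled for 3 resistant and 3 parental samples, and the processed tables hold 1 loop list and 1 domain list for each condition. The tables therefore carry no replicate spread, no difference between the conditions was tested, and all intervals given are exact 95% binomial intervals that cover counting error only. Doxorubicin is the drug that the series text gives for Hi-C, but the labels of the samples say gemcitabine and were followed. The read depth of the libraries is unknown.

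Chromatin loops are pairs of distant DNA sites that touch more often than their surroundings, and many are held by the factor CTCF and the cohesin ring. Topologically associating domains are stretches of a chromosome that mostly contact themselves, and contacts between enhancers and promoters usually stay inside them. Histone acetyltransferases and the Kmt2 methyltransferases are known for marking active promoters and enhancers, Polycomb repressive complexes and deacetylases for silencing, and the SWI/SNF family for opening nucleosomes at enhancers, with several of its subunit genes recurrently mutated in human pancreatic cancer.

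A loop joined 2 bins of 5 kb, and a member's loops were those with a bin no more than 5 kb from either end of the gene. It was called found in both lists when the other list had a loop with both bins no more than 10 kb away, and otherwise resistant-only or parental-only. The resistant list held 7169 loops and the parental list 6829, with 2541 of each found in both. In the resistant list 35 of 97 members had a loop (36.1%, 26.6 to 46.5), against 23.8% of all protein-coding genes. In the parental list 33 members had one (34.0%, 24.7 to 44.3), against 23.3% of all genes. Both intervals lie above the share over all genes. The members were also longer, with a median gene length of 49.5 kb against 17.3 kb over all genes, and the part of length in these shares was not tested. Counted at the gene start alone, 24.0% of 75 members with a known strand had a loop in the resistant list (14.9 to 35.2, against 14.9% of genes with a known strand) and 22.7% in the parental list (13.8 to 33.8, against 14.9%). The resistant interval begins at the value of all genes and the parental one holds it. Among the stronger 50% of loops by p, 19.6% of members had one in the resistant list (12.2 to 28.9, against 16.3% of all genes) and 21.6% in the parental list (13.9 to 31.2, against 15.7%), and both intervals hold the value of all genes.

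Of the 97 members, 21 had loops in both lists (21.6%, 13.9 to 31.2, against 13.2% of all genes), 14 had them in the resistant list only (14.4%, against 10.6%) and 12 in the parental list only (12.4%, against 10.1%). The other 50 members had none in either list. More resistant-only than parental-only loops were listed for 16 members (16.5%, 9.73 to 25.4, against 11.8% of all genes), and more parental-only loops for 19 (19.6%, 12.2 to 28.9, against 11.3%). The median difference was 0, as it was over all genes. The split depended on the window. With gene ends counted within 10 kb, 16 members leaned to the resistant list and 27 to the parental list. Over all genes 15.6% leaned to the resistant list and 15.3% to the parental list in that window. Within 20 kb 19 members leaned to the resistant list and 32 to the parental list. There 20.4% of all genes leaned to the resistant list and 19.8% to the parental list. In the 5 kb window Kat6a had 2 more resistant-only loops, where 1.08% of all genes had 2 or more, and Arid4a and Smarcd3 each had 2 more parental-only loops, where 1.21% of all genes did. With gene ends only inside the anchor bin the differences were 1 for Kat6a and 0 for Arid4a and Smarcd3, and in the stronger 50% of loops they were 0 for Kat6a and Smarcd3 and -1 for Arid4a. At the gene start alone Smarcd3 had 0. The other members that leaned did so by 1 loop, 15 to the resistant list and 17 to the parental list.

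**Figure D1:**
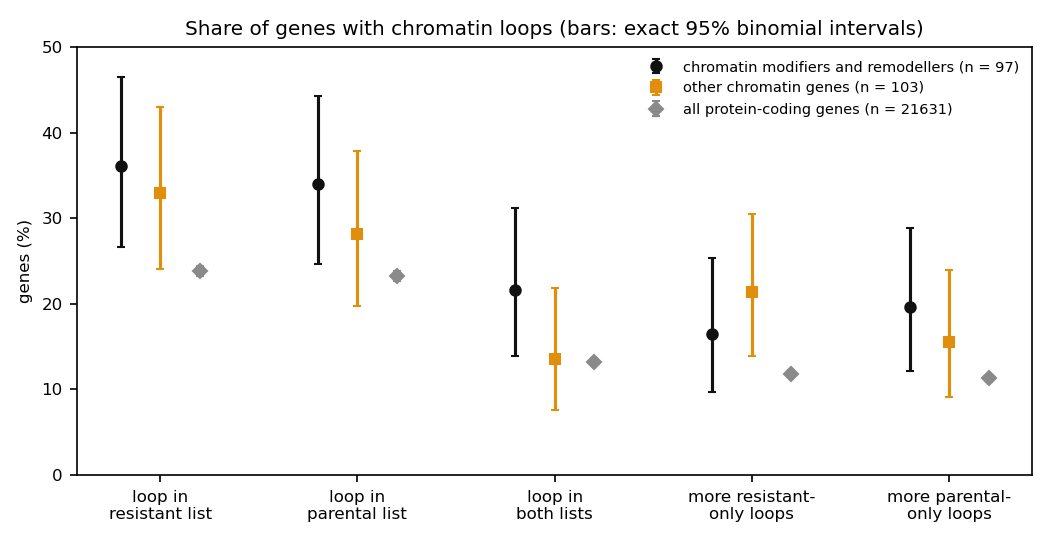
Share of genes (percent) with a loop in the resistant list, in the parental list and in both, and share with more resistant-only or more parental-only loops. Points are 97 chromatin modifiers and remodellers, 103 other chromatin genes and 21631 protein-coding genes, and bars are exact 95% binomial intervals. The members' shares with a loop in each list, 36.1% for resistant and 34.0% for parental cells, have intervals above the values of all genes.

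Of 8 Kmt genes, which write methyl marks on histones, 5 had a loop in the resistant list and 3 in the parental list. Kmt2c and Kmt2d, the methyltransferases that act at enhancers, had matching loops in both lists. Kmt2d, at chr15:98831669-98874077 on mm10, had 2 loops in each list. Its loop of 55 kb to Tuba1b, a tubulin gene, had a p, as its caller gave it, of 8.7e-05 in the resistant list, and the matching loop of 50 kb had 5.74e-07 in the parental list. The loop of 25 kb along the gene had a p of 6.55e-07 in the resistant list and 1.08e-07 in the parental list. A caller's p ranks loops within its own list, so p values of different lists are set beside each other without a comparison.

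Kmt2c had the same loop of 35 kb from its start in both lists and a parental-only loop of 115 kb. Kmt5a, which places the first methyl group on a lysine of histone H4, was joined to Rilpl1 and Tmed2 by a loop of 105 kb with a p of 3.07e-08 in the resistant list and by one of 100 kb with 1.11e-06 in the parental list. A second loop of Kmt5a, 15 kb long, was parental-only. Kmt2b and Kmt5c each had 1 resistant-only loop and none in the parental list. The Kmt5c loop, of 45 kb, reached an anchor shared by Il11, Rpl28, Tmem190 and Tmem238. Kmt2a, Kmt2e and Kmt5b had no loop in either list.

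Among the Polycomb genes, Eed and Ezh2 had loops, while Ezh1 and Suz12 had none. Ezh2, the catalytic subunit, lies at chr6:47530274-47595270 and was anchored at opposite ends in the lists. In the resistant list its start was joined over 265 kb to the bin at chr6:47325001-47330000 with a p of 0.0167, which put it among the weakest calls of that list, at the 90.4 percentile of p. In the parental list its far end was joined over 215 kb to the bin at chr6:47310001-47315000 with a p of 9.28e-06, at the 33.3 percentile. The far anchors thus lay close together while the gene anchors lay 65 kb apart, and both loops counted as specific. Eed, the subunit that reads the Polycomb mark, had 1 resistant-only loop of 270 kb from its start (p of 6.01e-06) and none in the parental list.

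Of 10 acetyltransferase genes, 3 had loops in the resistant list and 2 in the parental list. The paralogous coactivators Ep300 and Crebbp had none, nor had Kat14, Kat2b, Kat7 and Kat8. Kat2a, the catalytic subunit of the SAGA coactivator, kept 2 loops. The one of 130 kb to Cnp and Ttc25 had a p of 5.02e-07 in the resistant list and 2.37e-08 in the parental list. Kat6a, at chr8:22859442-22943259, had 2 resistant-only loops, of 35 kb at its lower end (p of 0.00039) and of 70 kb at its upper end (p of 0.00246), and none in the parental list. Its paralogue Kat6b had 1 resistant-only loop, of 115 kb to Samd8. Kat5, the acetyltransferase of the TIP60 complex, had 1 parental-only loop of 25 kb, from its start to Rela, which encodes a subunit of NF-kappaB.

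**Figure D2:**
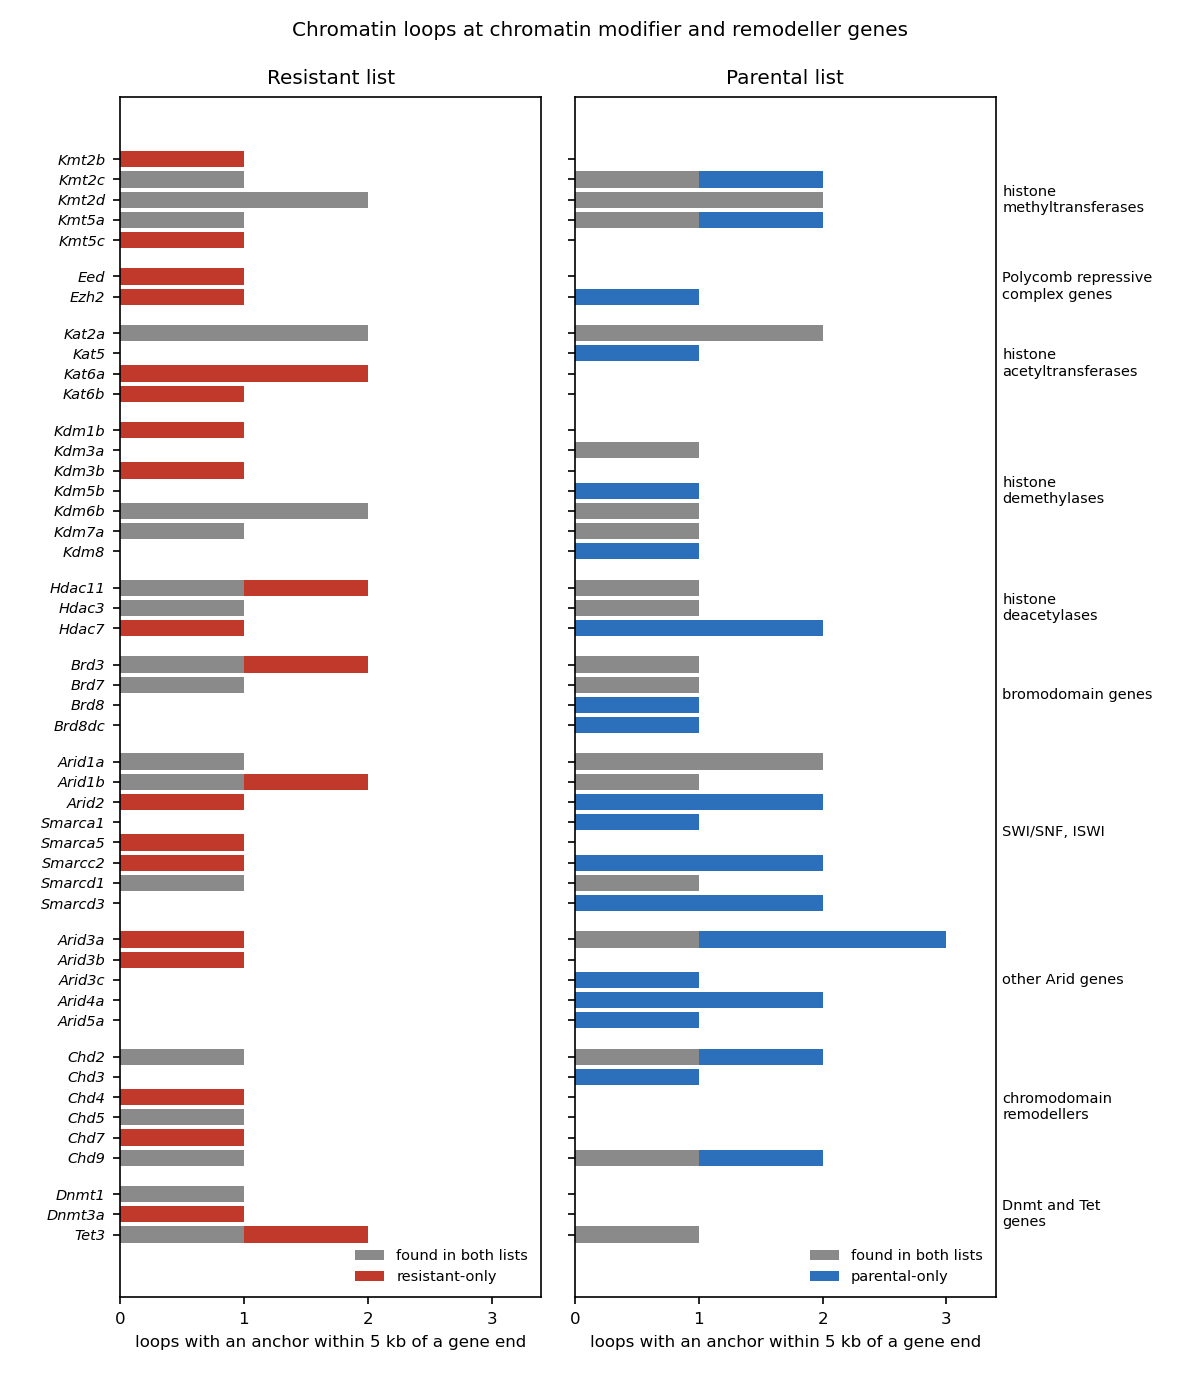
Number of loops with an anchor within 5 kb of a gene end for the 47 members that had any, in the resistant list (left) and the parental list (right), grouped by role. Grey bars are loops found in both lists and coloured bars are loops of 1 list only. The highest counts are 2 in the resistant list and 3, for Arid3a, in the parental list.

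Of 17 Kdm genes on chromosomes with calls, whose products remove methyl groups from histones, 4 had loops in the resistant list and 5 in the parental list, and of 11 deacetylase genes 3 had loops in each list. Kdm6b, which removes the Polycomb methyl mark, had the strongest loop of the Kdm genes in the resistant list. That loop of 125 kb had a p of 3.55e-08. The matching parental loop, with a p of 9.65e-12, ended 1 bin further away and fell outside the gene window, so it is not among the parental counts. A loop of 115 kb on the other side had a p of 2.23e-07 in the resistant list and matched a parental one of 110 kb with 5.83e-06. Kdm7a kept a loop of 60 kb in the resistant list and 65 kb in the parental list, and Kdm3a had 1 parental loop whose resistant match lay 1 bin away and outside the window. Kdm1b and Kdm3b each had 1 resistant-only loop. Kdm5b and Kdm8 each had 1 parental-only loop, and that of Kdm8 joined the start of the gene to its far end over 15 kb. The 10 Kdm genes without a loop in either list were Kdm1a, Kdm2a, Kdm2b, Kdm4a, Kdm4b, Kdm4c, Kdm4d, Kdm5a, Kdm5c and Kdm6a.

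The deacetylase genes with loops were Hdac3, Hdac7 and Hdac11, while Hdac1, Hdac2, Hdac4, Hdac5, Hdac6, Hdac8, Hdac9 and Hdac10 had none. Hdac3, the catalytic subunit of the nuclear receptor corepressor complexes, had the same loop of 30 kb in both lists. Hdac11 kept a loop of 115 kb (p of 1.19e-07 in the resistant list and 1.34e-06 in the parental list) and had a resistant-only loop of 255 kb from its start to Wnt7a, a Wnt ligand gene (p of 6.99e-06). Hdac7, a class IIa deacetylase at chr15:97792661-97844502, shared no loop between the lists. In the resistant list its far end was joined over 170 kb to Tmem106c with a p of 3.57e-06. The bin at the far end was adjacent to the Slc48a1 bin of the longer parental loop. In the parental list its start, which lies close to the vitamin D receptor gene Vdr, was joined over 65 kb to Slc48a1 beyond the far end with a p of 3.24e-07, and over 25 kb to a site within the gene with a p of 1.42e-05.

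The bromodomain genes, whose products bind acetylated histones, had loops at 2 of 9 genes in the resistant list and at 4 in the parental list. Brd3, a BET family reader, kept a weak loop of 220 kb (p of 0.00884 in the resistant list) that matched one of 225 kb (p of 0.0276 in the parental list), and had a resistant-only loop of 35 kb from a bin shared with Wdr5. Brd7, a subunit of the PBAF form of SWI/SNF, was joined to Adcy7 in both lists, over 85 kb with a p of 0.000462 in the resistant list and over 90 kb with 3.36e-07 in the parental list. Brd8, a TIP60 complex subunit, and Brd8dc each had 1 parental-only loop. Brd1, Brd2, Brd3os and Brd9 had none.

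SWI/SNF and ISWI complexes slide or evict nucleosomes. Of 14 SWI/SNF and ISWI genes, 6 had loops in the resistant list and 7 in the parental list, 5 of them in both, with 4 resistant-only and 7 parental-only loops among them. Smarcc2, a core scaffold subunit of SWI/SNF at chr10:128459182-128490591, was anchored in adjacent bins with different partners. In the resistant list the bin that holds its start was joined over 85 kb to Coq10a and Ankrd52 with a p of 1.04e-06, the lowest among resistant-only loops at members. In the parental list the bin before it was joined over 40 kb to Nabp2 and Rnf41 with a p of 0.00246, and the bin after it over 75 kb to Zc3h10 with a p of 3.35e-05. With gene ends counted only inside the anchor bin, Smarcc2 had the resistant loop alone, which turns its difference from -1 to 1. All 3 partner bins lay no more than 10 kb from an anchor of another loop in the list of the other condition.

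Arid2, the subunit that defines PBAF, lies at chr15:96287522-96405463 and had its long loops end 20 kb apart. The resistant loop spanned 490 kb to Ano6 (p of 0.000298) and the parental loop 510 kb (p of 0.00021), both from the bin at chr15:96280001-96285000, so the 10 kb tolerance put them in different classes. A parental-only loop of 330 kb started in the same bin. Smarcd3, at chr5:24592622-24624456, had parental-only loops of 55 kb (p of 0.000305) and 65 kb (p of 0.0179), which left its far end in opposite directions, and none in the resistant list. Arid1a, the SWI/SNF subunit gene most often mutated in human pancreatic cancer, kept its loop of 55 kb with a p of 0.000132 in the resistant list and 2.96e-06 in the parental list. A parental loop of 160 kb at its far end (p of 1.42e-07) matched a resistant one that fell outside the gene window. Arid1b kept a loop of 80 kb and had a resistant-only loop of 220 kb from the same start, but its difference turned to -1 when loops along the gene body were counted. Smarcd1 kept 1 loop, to Lima1, and Smarca5, an ISWI ATPase gene, had 1 resistant-only loop along the gene. Smarca1, the other ISWI ATPase gene, had 1 parental-only loop of 185 kb. Smarca2 and Smarca4, which encode the alternative ATPases of SWI/SNF, had no loop in either list, nor had Smarcb1, Smarcc1, Smarcd2 and Smarce1.

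**Figure D3:**
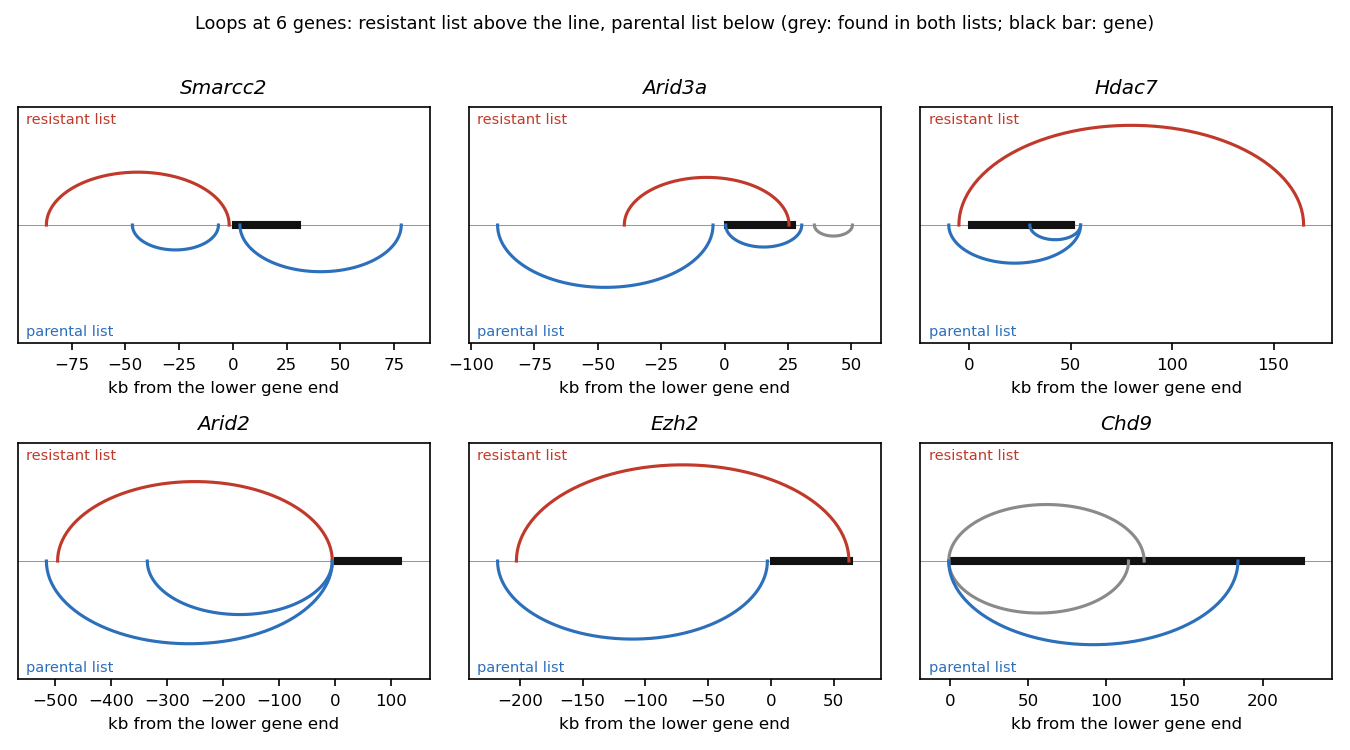
Loops at 6 members, drawn as arcs against the distance in kb from the lower coordinate end of each gene, with the resistant list above the line and the parental list below. Grey arcs were found in both lists and the black bar is the gene. Arid2 and Ezh2 loops of the lists have far anchors close together. The Hdac7 resistant loop and the longer Hdac7 parental loop have lower anchors in adjacent bins and differ at the upper anchor.

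Promoter sequences are shown for members whose start lay inside an anchor bin, as a small piece of that bin. RefSeq promoters on GRCm38.p6 were at hand for 76 of the 98 members, and 9 members had their annotated start inside a bin. The 250 bases before a RefSeq start are shown for Smarcc2 and Smarca5, which had resistant-only loops, and for Arid1a and Kdm7a, whose loops were found in both lists. Capitals mark the letters AGGGGGC, part of the CTCF motif, or their reverse complement GCCCCCT, and in Smarcc2 a longer form of the CTCF core motif, of which they are part. Smarcc2 lies at chr10:128458986-128459235 on the plus strand, Smarca5 at chr8:80739460-80739709, Arid1a at chr4:133756770-133757019 and Kdm7a at chr6:39206774-39207023, these 3 on the minus strand. The RefSeq start used for Smarcc2 lies inside the gene as placed above. The last bases of its stretch, with the marked letters, are therefore within the gene.
Smarcc2: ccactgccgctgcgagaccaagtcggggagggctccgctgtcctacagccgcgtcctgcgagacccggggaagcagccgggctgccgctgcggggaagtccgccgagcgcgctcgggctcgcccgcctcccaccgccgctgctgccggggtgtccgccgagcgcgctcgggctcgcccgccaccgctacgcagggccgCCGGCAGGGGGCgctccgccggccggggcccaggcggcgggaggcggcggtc
Smarca5: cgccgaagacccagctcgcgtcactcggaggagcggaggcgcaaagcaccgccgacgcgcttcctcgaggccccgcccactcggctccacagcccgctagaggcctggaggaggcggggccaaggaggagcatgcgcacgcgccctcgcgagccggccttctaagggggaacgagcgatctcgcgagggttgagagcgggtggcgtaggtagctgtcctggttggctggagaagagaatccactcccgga
Arid1a: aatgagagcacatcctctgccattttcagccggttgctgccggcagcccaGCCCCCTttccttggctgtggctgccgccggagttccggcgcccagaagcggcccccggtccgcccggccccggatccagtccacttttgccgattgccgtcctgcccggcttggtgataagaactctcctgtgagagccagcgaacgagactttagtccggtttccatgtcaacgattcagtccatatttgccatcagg
Kdm7a: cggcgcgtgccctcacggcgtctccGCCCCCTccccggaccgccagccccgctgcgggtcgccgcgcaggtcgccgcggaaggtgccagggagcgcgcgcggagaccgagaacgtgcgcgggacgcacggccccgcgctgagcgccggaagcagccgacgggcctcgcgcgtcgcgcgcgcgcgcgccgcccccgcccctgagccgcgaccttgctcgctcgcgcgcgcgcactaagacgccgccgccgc

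All 4 were rich in G and C, with 80.8% in Smarcc2, 69.2% in Smarca5, 61.2% in Arid1a and 82.0% in Kdm7a. The median over 107 member promoters was 63.6%, against 55.6% over 21263 promoters of protein-coding genes, and the median number of CpG was 19 against 10. AGGGGGC, searched on both strands, was in 27 of the 107 (25.2%, 17.3 to 34.6), against 11.6% of all. The part of the G and C content in this share was not tested. The 107 promoters came from 76 members, so some genes counted more than once. The interval takes each promoter as independent. Of the 18 member promoters that lay inside anchor bins, from 16 genes, 4 held AGGGGGC, those of Arid1a, Kdm5b, Kdm7a and Smarcc2. The longer form was in the promoters of Ep300 and Smarcc2 only (1.87%, against 1.5% of all). Forkhead letters, bound by the Foxa family, were near the share over all promoters, with TGTTTAC in 4 (3.74%, against 2.62%) and TGTTTGC in 5 (4.67%, against 3.93%). None of the 18 promoters in anchor bins held either forkhead motif, which allows a share of up to 18.5%.

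The other Arid genes encode DNA-binding proteins outside SWI/SNF. Of these 7 genes, 2 had loops in the resistant list and 4 in the parental list, with 2 resistant-only and 6 parental-only loops. Arid3a and Arid4a each had 2 of the parental-only loops. Arid3a, at chr10:79927043-79955018, had the most loops of any member in the parental list. Its resistant loop, resistant-only, joined its upper end over 65 kb to an anchor that holds Cfd, Elane, Med16 and Prtn3 (p of 2.61e-06), among which Elane and Prtn3 encode neutrophil proteases. Its 3 parental loops joined both gene ends over 30 kb (p of 7.02e-05), the lower end to Misp over 85 kb (p of 0.000533) and the upper end to Grin3b and Tmem259 over 15 kb (p of 0.0182), and only the last, the weakest, was found in both lists.

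Arid4a, a retinoblastoma-binding protein gene at chr12:71015081-71099351, had parental-only loops of 25 kb at each end, with a p of 3.14e-07 at the lower end and 0.00525 at the upper end. The loop at the lower end had the lowest p among parental-only loops at members, and the nearest resistant loop lay 325 kb away. Arid3c had 1 parental-only loop of 25 kb to Dctn3 and Rpp25l (p of 6.78e-06), Arid5a had 1 of 170 kb, and Arid3b had 1 resistant-only loop, of 65 kb to Clk3. Arid4b and Arid5b had none.

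Of 10 chromodomain remodeller genes, 5 had loops in the resistant list and 3 in the parental list. Chd3, Chd4 and Chd5 encode alternative ATPases of the NuRD complex. Chd5 had the second lowest p of resistant member loops, 1.84e-09 over 90 kb, while its parental match (p of 4.86e-06) fell outside the gene window. Chd4 had 1 resistant-only loop, to Acrbp and Ing4, and Chd3 had 1 parental-only loop of 45 kb. Chd9, at chr8:90828302-91054516, kept a loop within the gene, of 125 kb with a p of 0.000167 in the resistant list and of 115 kb with 5.32e-06 in the parental list. A parental-only loop of 185 kb left the same start with a p of 3.84e-07. Chd2 kept a loop of 75 kb (p of 7.29e-08 in the resistant list and 3.03e-07 in the parental list) and had a parental-only loop between adjacent bins with a p of 0.0444, although counting the gene body turned its difference to 1. Chd7 had 1 resistant-only loop of 25 kb, and Chd1, Chd1l, Chd6 and Chd8 had none.

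Among the 7 Dnmt and Tet genes, 3 had loops in the resistant list and 1 in the parental list, with 2 resistant-only and 0 parental-only loops. Tet3, an oxidase that starts the removal of DNA methylation, carried the strongest member loop of both lists. It joined the far end of Tet3 at chr6:83362373-83457208 over 155 kb to Dguok, the mitochondrial deoxyguanosine kinase gene, and Actg2, with the same bins in both lists and a p of 5.79e-11 in the resistant list and 1.89e-10 in the parental list. The bin at the Tet3 side lay just outside the gene and was also within 5 kb of an end of Bola3. From the same Tet3 bin a resistant-only loop of 315 kb ran to Cd207 with a p of 4.18e-05. With gene ends counted only inside the anchor bin, the difference for Tet3 was 0, against 1 in the main setting. Dnmt1, the maintenance methyltransferase gene, had a loop of 95 kb to Mrpl4 whose parental match fell outside the window. Dnmt3a, a de novo methyltransferase gene, had 1 resistant-only loop of 105 kb. Dnmt3b, Dnmt3l, Tet1 and Tet2 had none.

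Counted once each, the members had 43 loops in the resistant list, of which 21 were found in both (48.8%, 33.3 to 64.5), and 47 in the parental list, of which 21 were found in both (44.7%, 30.2 to 59.9). Loops at any protein-coding gene had shares of 44.8% for the resistant and 46.2% for the parental list, inside these intervals. Resistant-only loops made up 22 of the 48 condition-specific loops at members (45.8%, 31.4 to 60.8), against 51.4% at any gene. Loops found in both lists had lower p, with medians of 1.68e-06 against 0.000291 for resistant-only loops, and of 2.96e-06 against 0.00023 for parental-only loops. The same order held over loops at any gene, with 2.53e-06 against 0.000227 in the resistant list and 2.38e-06 against 0.000195 in the parental list.

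The median span of member loops was 80 kb in the resistant list and 65 kb in the parental list, against 100 kb in the resistant and 105 kb in the parental list at any gene. Protein-coding genes stood at both anchors of 21 of 43 resistant loops (48.8%, 33.3 to 64.5, against 31.4% at any gene) and 19 of 47 parental loops (40.4%, 26.4 to 55.7, against 32.5%). No loop joined 2 members. None of the 43 resistant loops crossed a border of the resistant domain list, which allows a share of up to 8.22%, against 4.8% at any gene. Of the 47 parental loops 1 did, that of Arid2 over 510 kb (2.13%, 0.0539 to 11.3, against 4.48% at any gene). Both intervals hold the value at any gene. Where the strand was known, the resistant loops were anchored at the gene start in 20 cases, at the far end in 11 and at both in 1, and the parental loops at the start in 20, the far end in 12 and both in 1.

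**Figure D4:**
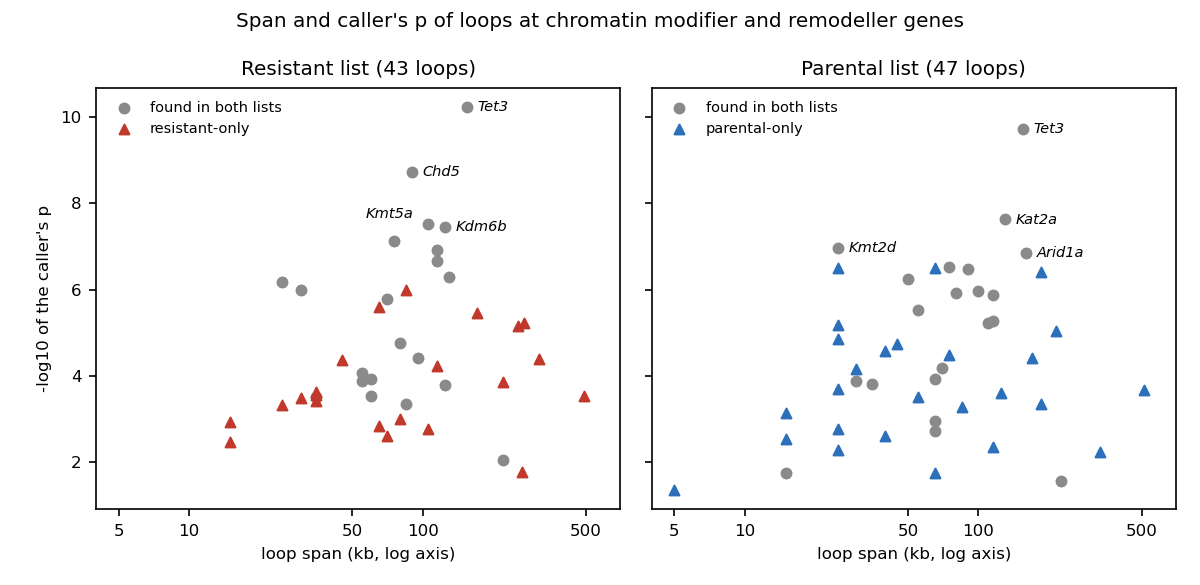
Span in kb (log axis) and minus log10 of the caller's p for the 43 resistant (left) and 47 parental (right) loops at members. Grey circles were found in both lists and coloured triangles in 1 list only. The 4 genes with the lowest p are named in each panel, and Tet3 leads both.

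Every member lay inside a domain in both lists. The median domain size was 500 kb (450 to 550) in the resistant list and 520 kb (450 to 560) in the parental list, against 540 kb in the resistant and 550 kb in the parental list over all genes, with intervals of the median from order statistics. The domain was identical in both lists for 40 of 97 members (41.2%, against 31.3% of all genes), larger in the resistant list for 18 (18.6%, against 28.4%) and smaller for 38 (39.2%, against 38.4%). Both borders of the domain were found in both lists for 69 members by the resistant domain (71.1%, 61.0 to 79.9, against 66.0% of all genes) and for 71 by the parental one (73.2%, 63.2 to 81.7, against 70.5%). These intervals hold the values of all genes. Ep300, Crebbp, Ezh1, Suz12 and Eed had identical domains, of 370, 500, 570, 420 and 540 kb in both lists. The Ezh2 domain was 590 kb with 8 genes in the resistant list and 540 kb with 4 genes in the parental list.

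The widest differences were domains that were smaller in resistant cells. The domain of Arid1b was 650 kb in the resistant list and 1860 kb in the parental list, with the same upper border. That of Chd5 was 510 kb with 19 genes in the resistant list and 1620 kb with 4 genes in the parental list, since Chd5 was grouped with the genes on its lower side in one list and with the stretch on its upper side in the other. Smarca1 had 650 kb in the resistant list and 1670 kb in the parental list, Brd7 had 640 kb in the resistant list and 1210 kb in the parental list, and Brd1 had 400 kb in the resistant list and 930 kb in the parental list. The parental domain of Brd1 also held Hdac10, which lay outside the resistant one.

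In the other direction the largest differences were smaller. Hdac7 had 850 kb with 24 genes in the resistant list and 520 kb with 12 genes in the parental list, with a common lower border. Dnmt3l, a cofactor of the de novo methyltransferases, had 540 kb with 33 genes in the resistant list and 250 kb with 7 genes in the parental list. The resistant domains of Chd6, Kmt5a and Smarcc1 were 900, 540 and 450 kb, and their parental domains were 600, 260 and 180 kb. The largest member domain was that of Hdac2, which shared 2390 kb in the resistant list and 2360 kb in the parental list with 2 other genes. Arid3c (1540 kb in both lists) and Smarca2 (1050 kb) followed in the resistant list. The smallest in the resistant list were those of Arid4a and Kdm4c, of 210 kb each, and of Hdac9, of 220 kb. In the parental list the smallest were those of Smarcc1 (180 kb), Arid4a (210 kb) and Kdm4c (230 kb). Hdac9, a long gene with a border inside it in both lists, had a parental domain of 730 kb.

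**Figure D5:**
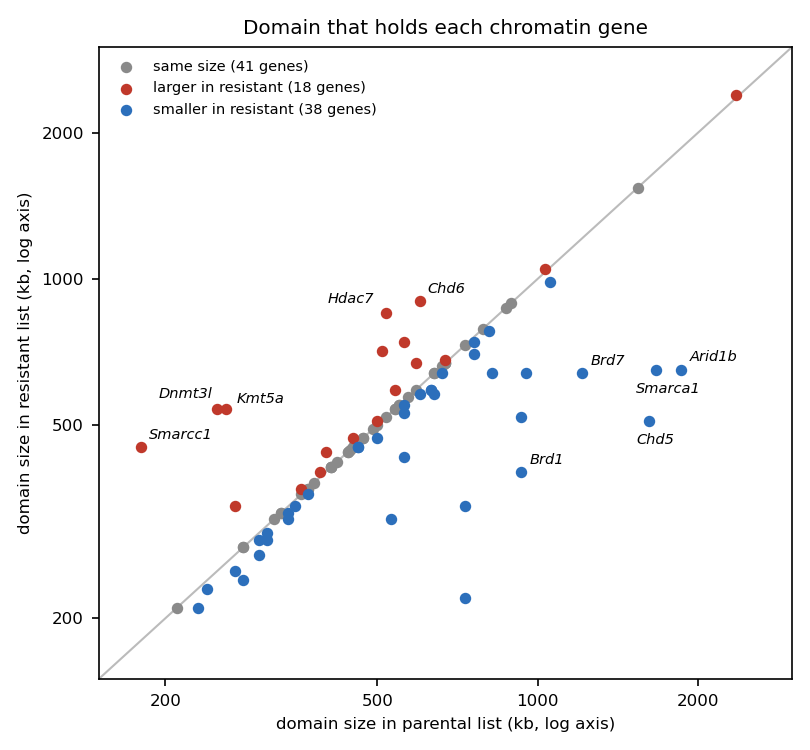
Size of the domain that holds each of 97 members, in kb on log axes, in the resistant list (vertical) against the parental list (horizontal). The line marks equal size and the 5 largest differences in each direction are named. Arid1b, Smarca1 and Chd5 lie far below the line, with parental domains of 1860, 1670 and 1620 kb.

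The median distance from a member to the nearest border was 54.5 kb (38.3 to 90.7) in the resistant list and 53.0 kb (38.3 to 88.6) in the parental list, against 87.7 kb in the resistant and 91.5 kb in the parental list over all genes. The resistant interval holds the value of all genes and the parental one ends just below it. A longer gene reaches nearer to a border by its length alone, a part that was not tested. A border lay within 20 kb of 26 members in the resistant list (26.8%, 18.3 to 36.8, against 21.9% of all genes) and of 24 in the parental list (24.7%, 16.5 to 34.5, against 20.8%), 20 of them in both. The nearest border was found in both lists for 78 members by the resistant list (80.4%, against 81.0% of all genes) and for 80 by the parental list (82.5%, against 83.7%).

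A border within 20 kb in the resistant list only was seen at 6 members (6.19%, 2.30 to 13.0, against 4.00% of all genes). For Arid5b, Chd1 and Kdm4c it lay 1 bin nearer than in the parental list, with distances of 10.6, 17.4 and 12.5 kb in the resistant list and 20.6, 27.4 and 22.5 kb in the parental list. For Dnmt3b the distances were 19.4 kb in the resistant list and 39.4 kb in the parental list. Chd6 and Kdm5a had borders with no parental counterpart, inside Chd6 and 4.1 kb from Kdm5a, a histone demethylase gene, where the nearest parental borders lay 70.9 and 45.4 kb away. A border within 20 kb in the parental list only was seen at 4 members (4.12%, 1.13 to 10.2, against 2.89% of all genes). The distances were 59.8 kb for Chd5, 87.4 kb for Smarca1, 79.8 kb for Smarcc1 and 142.5 kb for Tet1 in the resistant list, and 8.6, 17.4, 2.0 and 14.6 kb in the parental list, and none of these parental borders had a resistant counterpart within 20 kb.

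A second list of 103 chromatin genes that the symbols leave out, among them the Setd and Sirt families, further Polycomb genes and further subunits of NuRD and SWI/SNF, was counted in the same way. Loops were listed for 34 in the resistant list (33.0%, 24.1 to 43.0, against 23.8% of all genes) and 29 in the parental list (28.2%, 19.7 to 37.9, against 23.3%). Of the 103, 14 had them in both (13.6%, 7.63 to 21.8, against 13.2% of all genes). Of their loops 8 of 38 in the resistant list (21.1%, 9.55 to 37.3) and 8 of 33 in the parental list (24.2%, 11.1 to 42.3) were found in both. Loops at any gene had 44.8% in the resistant and 46.2% in the parental list, above these intervals. More resistant-only loops were listed for 22 (21.4%, 13.9 to 30.5, against 11.8% of all genes) and more parental-only loops for 16 (15.5%, 9.15 to 24.0, against 11.3%). Among the members the larger count was on the parental side. Wdr5, a subunit shared by the Kmt2 complexes, had 2 resistant-only loops and none in the parental list. These include the loop of 35 kb that was also counted for Brd3. Asxl2, a partner of the histone H2A deubiquitinase Bap1, and Epop, a Polycomb accessory protein gene, each had 2 parental-only loops and none in the resistant list.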

How the data were processed

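The values were deposited Hi-C calls, 1 loop list on bins of 5 kb and 1 domain list on bins of 10 kb per condition. Fixation was in 1% formaldehyde for 10 min and digestion with DpnII, per the labels' protocols. The submitters' processing notes name BWA, mm10 and hg19. Coordinates were taken as mm10. The callers of loops and domains, and any pooling of replicates, were not given in the sources used here. Loops carry a p-value, at most 0.0497 in either deposited list, and domains a separation score of unstated scale, per the file headers. The 48 samples of other assays were not analysed here.

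The members and lists were chosen with earlier results of these data known. Genes came from the RefSeq annotation of GRCm38.p6, the same assembly as mm10. A domain was assigned by the gene midpoint, and a border was found in both lists within 20 kb. Rank percentiles of p run from the strongest call. Intervals are exact Clopper-Pearson 95%. Promoter letters were counted over the 250 bases before each RefSeq start. The named genes were all members with a loop, and in detail those with 3 or more loops, with a difference of 2 or more, with the 5 lowest p per class or with the largest domain differences, and Ep300, Crebbp and the Polycomb genes. Python 3.11.15, numpy 2.4.6, pandas 2.3.3 and scipy 1.17.1 were used, and the steps were tested on simulated lists. Alternatives were 17 planned settings and 3 added after the data were seen.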

Additional observations from a re-analysis of the deposited data

How the results depend on the processing

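Of 216 recomputed summary values, 176 stayed within their limit and 40 moved beyond it. A share or median moved when it left the interval of the main setting, and a count when its ratio to the main value passed a set limit. Reversals were not scored for these values. The order of the lists did change with the window. Members with a loop were 35 and 33 in the main setting but 57 and 61 within 20 kb. Members leaning were 16 and 19 in the main setting but 8 and 7 with the gene end inside the bin. The gene window set the counts most, with values given as members with a loop in the resistant list, in the parental list and in both, members leaning to resistant and to parental cells, and loops in the resistant and parental lists. With the gene end inside the anchor bin these were 18, 15 and 9 members, 8 and 7 leaning, and 19 and 18 loops, and 61.1% of the parental loops were in both lists. In that setting 10.15% of all genes had a loop in the resistant list and 10.32% in the parental list. Of all genes 5.2% leaned to the resistant list and 5.4% to the parental list. With ends within 20 kb the member values were 57, 61 and 46 members, 19 and 32 leaning, and 85 and 96 loops. A loop in the resistant list was then at 58.8% of members, against 43.4% of all genes. In the parental list it was 62.9%, against 43.0%. Of all genes 20.4% leaned to the resistant list and 19.8% to the parental list. With gene starts only, known for 75 members, the member values were 18, 17 and 10 members, 9 and 9 leaning, and 21 and 21 loops. Of genes with a known strand 7.84% leaned to the resistant list and 7.79% to the parental list. With the lower-p 50% of each list the member values were 19, 21 and 12 members, 10 and 10 leaning, and 25 and 25 loops. Of all genes 7.64% then leaned to the resistant list and 6.97% to the parental list. Gene bodies, added after the data were seen, gave 34 members in both lists and 70 and 76 loops. A loop in the resistant list was then at 52.6% of members, against 31.6% of all genes. In the parental list it was 50.5%, against 31.1%. Identical bins left 18.6% of resistant and 17.0% of parental member loops in both lists. Both borders in both lists held for 61.9% by the parental list at a tolerance of 10 kb, and for 81.4% by the resistant and 82.5% by the parental list at 40 kb. A border lay within 50 kb of 46 members in each list, a count with no share over all genes beside it. With the lower-score 50% of domains, added later, 53.5% of resistant domains had both borders in both lists and 13 members were near a parental border.

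Among single genes, the resistant-only minus parental-only difference reversed for Smarcc2 (1 with the gene end inside the bin, -1 in the main setting) and, with gene bodies, for Arid1b (-1) and Chd2 (1). The cause was not tested.

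No paired analysis was possible because each condition had 1 list and the columns carry no replicate numbers. Depth and the spread between cultures are unknown.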

Other observations

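Some condition-specific loops at members ran between anchors that the other list also used, each for another loop. A bin counted as used when an anchor of the other list lay no more than 10 kb away. Both bins served other loops of the other condition for 5 of 22 resistant-only loops (22.7%, against 12.6% at any gene) and for 6 of 26 parental-only loops (23.1%, against 11.8%). Neither bin did for 10 of the resistant-only loops (45.5%, against 51.4% at any gene) and for 14 of the parental-only loops (53.8%, against 50.2%).

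Members of different classes shared domains. Chd3 and Kdm6b lay in 1 domain of 590 kb in the resistant list and 630 kb in the parental list. Brd8, Brd8dc and Kdm3b lay in 1 domain of 670 kb in both lists, where Kdm3b had a resistant-only loop and Brd8 and Brd8dc had a parental-only loop each.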
